A study of Homo sapiens with 6 samples.

Results

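Aminoacyl-tRNA synthetases are the enzymes that attach each amino acid to its tRNA. The set described here holds 38 genes, taken by name from a table of 58825 gene identifiers: 19 cytosolic synthetase genes, 16 mitochondrial ones and the 3 scaffold proteins AIMP1, AIMP2 and EEF1E1. Older symbols such as AARS for AARS1 were accepted. All 38 were found, and all 38 were among the 19081 genes expressed highly enough to be tested.

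A synthetase first activates its amino acid with ATP and then transfers it to the matching tRNA, which carries it to the ribosome. Human cells mostly use separate nuclear genes for the cytosol and for mitochondria, although KARS1 and GARS1 each make both forms from 1 gene. Several cytosolic enzymes sit together in a multi-synthetase complex held by AIMP1, AIMP2 and EEF1E1. Many cytosolic synthetase genes are known targets of ATF4, the transcription factor of the amino acid response, while WARS1 is also known as an interferon-induced gene.

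RNA was sequenced from FaDu, an established line of hypopharyngeal carcinoma cells. In 3 libraries, called shNSUN2, the cells carried a short hairpin RNA against NSUN2, the methyltransferase that places 5-methylcytosine on tRNAs and some mRNAs. The other 3 libraries, called FaDu, came from the same line without that hairpin. Cells with a non-targeting hairpin are not part of the comparison, and so loss of NSUN2 cannot be told apart from the effect of carrying any hairpin. The labels do not say whether the hairpin cells were 1 clone or a pool, or whether replicates were separate cultures, so a p-value here reflects the scatter of these samples alone, and that scatter may be technical.

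NSUN2 was measured first, as a check of the labels. It had 50.4, 34.7 and 39.6 CPM (counts scaled to the library total by edgeR's TMM method) in shNSUN2, against 169, 173 and 156 CPM in FaDu. The groups did not overlap, and the shNSUN2 mean was 25.1% of the FaDu mean. This is a log2 fold change of -1.997 (SE 0.16) with an edgeR adjusted p of 0.000526. By exact permutation of the libraries, two-sided, p was 0.1, which is the lower limit for groups of 3. Library totals ran from 53612358 to 72788971 estimated counts. In base composition shNSUN2 replicate 3 differed from the other replicates: its log2 difference from their mean had a Spearman rho of 0.418 with the GC content of 19033 genes. The 9 listed epithelial markers, not all of them squamous, were all present but did not move together. They summed to 2990 to 3485 CPM in shNSUN2 and 2236 to 2492 CPM in FaDu. KRT8 (1193 to 1524 CPM in shNSUN2, 226 to 315 CPM in FaDu) and KRT18 (555 to 763 CPM in shNSUN2, 177 to 219.6 CPM in FaDu) were higher in every shNSUN2 library. The basal markers KRT5 (487 to 636 CPM in shNSUN2, 1020 to 1334 CPM in FaDu), KRT14 (18.8 to 30.2 CPM in shNSUN2, 101 to 113 CPM in FaDu) and TP63 (117 to 170.5 CPM in shNSUN2, 196 to 210.5 CPM in FaDu), and also KRT6A, were lower in every shNSUN2 library. EPCAM (177 to 209 CPM in shNSUN2, 128 to 132 CPM in FaDu) was higher in every shNSUN2 library. The same held for SOX2 (8.06 to 10.4 CPM in shNSUN2, 5.41 to 6.52 CPM in FaDu), while CDH1 overlapped between the groups. Markers of other tissues differed too. Endothelial markers summed to 31.7 to 54.6 CPM in shNSUN2 and 4.07 to 5.84 CPM in FaDu, nearly all of it CDH5 in shNSUN2 with PECAM1 and CLDN5 near 0. Prostate markers summed to 29.4 to 48.9 CPM in shNSUN2 and 13.8 to 17.4 CPM in FaDu, plasma cell markers to 1.90 to 5.11 CPM in shNSUN2 and 0 to 0.267 CPM in FaDu, and smooth muscle markers to 2.21 to 13.3 CPM in shNSUN2 and 0.972 to 1.16 CPM in FaDu. CD79A and MS4A1 were at 0 in all shNSUN2 libraries, and IGKC, MS4A1, MSMB, ACTG2 and CNN1 in all FaDu libraries. Leukocyte markers (28.4 to 34.6 CPM in shNSUN2, 23.2 to 41.4 CPM in FaDu, PTPRC at 0 in all libraries) and fibroblast markers (5.92 to 11.2 CPM in shNSUN2, 8.64 to 9.45 CPM in FaDu) overlapped between the groups. The part of such transcripts in the synthetase results was not tested, and in bulk RNA fewer cells of a type and less RNA per cell cannot be told apart.

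The synthetases did not move as 1 block. At an adjusted p under 0.05 in edgeR's quasi-likelihood test (Benjamini-Hochberg over all genes tested), 5 of the 38 genes rose in shNSUN2, 5 fell and 28 did not pass. Over all genes tested 18.5% passed, 8.54% higher and 9.97% lower, so the count over all 38 genes is not far from the background. Of the 19 cytosolic genes 4 rose and 5 fell, with a median log2 fold change of -0.16. Of the 16 mitochondrial genes 1 rose and 0 fell, with a median of 0.22. The median over all genes tested was -0.0069. The cytosolic median was below 0 and the mitochondrial median above 0 under all 13 alternative settings tried.

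**Figure D1:**
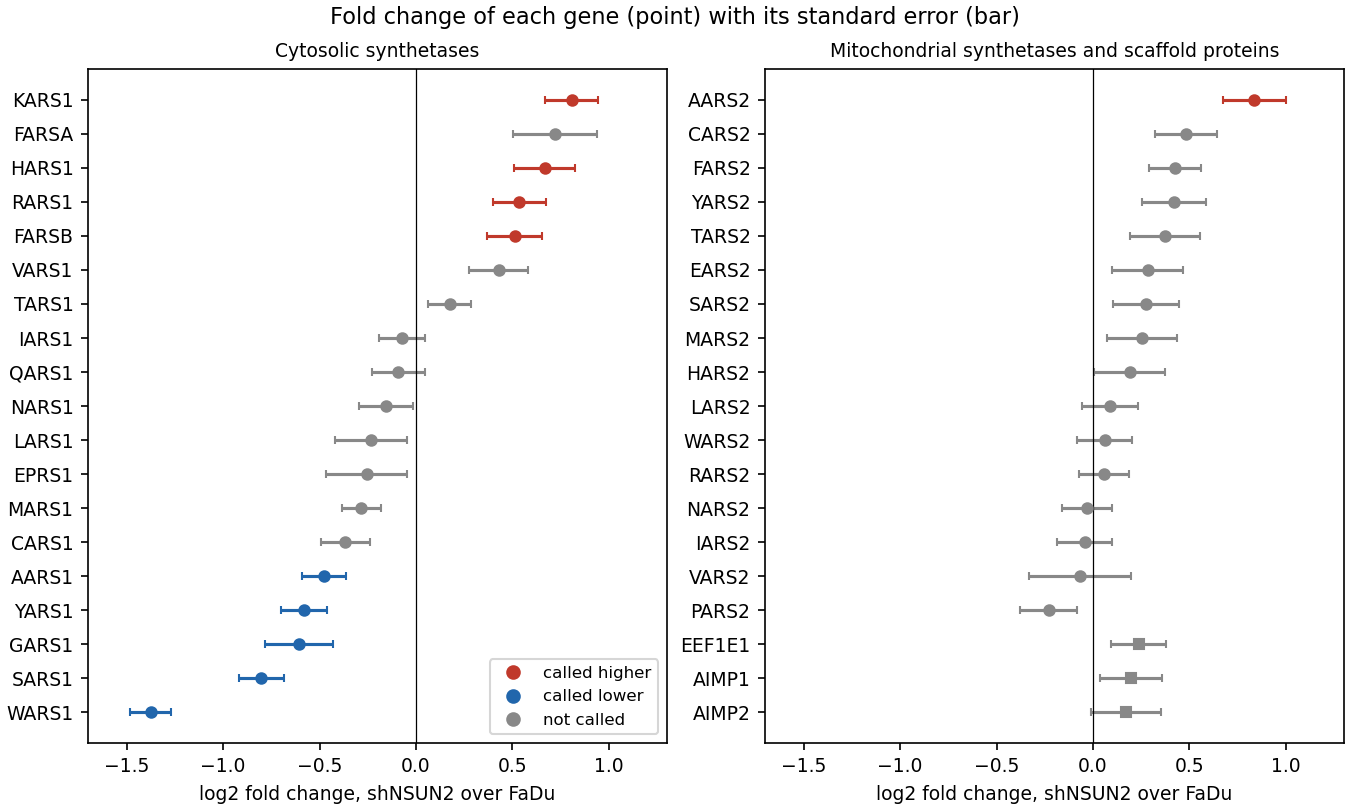
Each row is 1 gene; the x axis is the log2 fold change, shNSUN2 over FaDu, with the SE as a bar. Red points rose, blue points fell and grey points did not pass the test; squares are the 3 scaffold proteins. Cytosolic enzymes reach from -1.38 (WARS1) to 0.81 (KARS1), while mitochondrial enzymes lie between -0.23 (PARS2) and 0.84 (AARS2).

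The summed cytosolic level was lower in shNSUN2, although 7 of the 19 genes had a positive fold. Abundant genes weigh most in this sum. SARS1, WARS1 and AARS1 had means of 371, 170 and 543 CPM in shNSUN2, against 646, 441 and 756 CPM in FaDu. The 19 genes together had 4300.2, 4395 and 4220.01 CPM in shNSUN2, against 5061, 5098 and 4865 CPM in FaDu. The 16 mitochondrial genes together had 780.3, 728 and 813 CPM in shNSUN2, against 718, 670.3 and 685 CPM in FaDu. Every shNSUN2 library lay below every FaDu library in the cytosolic sum and above every one in the mitochondrial sum. In CPM, without regard to gene length, the cytosolic sum was 5.51, 6.04 and 5.19 times the mitochondrial sum in shNSUN2, against 7.05, 7.60 and 7.10 times in FaDu.

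The cytosolic enzymes that fell were those for tryptophan, serine, glycine, tyrosine and alanine, and all 5 belong to the listed ATF4-target synthetases. Among these 12 genes 5 fell and 0 rose, where 9.97% of all genes tested fell and 8.54% rose. Their median log2 fold change was -0.32. Without regard to the test, 7 of the 12 had every shNSUN2 library below every FaDu library, where 22.1% of all genes tested did. DESeq2 likewise called 5 lower and 0 higher, against 13.0% lower and 12.3% higher over all genes. At an unadjusted p under 0.05 in edgeR 7 were lower, against 17.3% of all genes, and no gene of the 12 was higher, against 16.4%. The 12 genes together had 3127, 3415 and 2873 CPM in shNSUN2, against 4252, 4311 and 4096 CPM in FaDu. Their grouping comes from what is known of ATF4, and it was chosen with earlier results of these data known.

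WARS1, the tryptophanyl-tRNA synthetase (chromosome 14, 100333788 to 100376805, GRCh38), changed most. It had 171, 166 and 173 CPM in shNSUN2, against 471, 449 and 405 CPM in FaDu. The shNSUN2 libraries differed little from each other and lay far below all FaDu libraries, at 38.5% of the FaDu mean. Its log2 fold change was -1.38 (SE 0.11) at an edgeR adjusted p of 0.000515, and WARS1 was called in all 13 alternatives with log2 fold changes of -1.44 to -1.27. SARS1, which charges serine and also selenocysteine tRNA (chromosome 1, 109213918 to 109238169), had 329, 416 and 367 CPM in shNSUN2, against 654, 655 and 629 CPM in FaDu. No library overlapped between the groups. It fell by 0.80 on the log2 scale (SE 0.12) at an edgeR adjusted p of 0.00426, and it too was called in all 13 alternatives.

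The other 3 decreases were smaller. YARS1, the tyrosine enzyme (chromosome 1, 32775237 to 32818153), had 181, 222 and 211 CPM in shNSUN2, against 291, 325 and 303 CPM in FaDu. AARS1, the alanine enzyme (chromosome 16, 70252295 to 70289543), had 476, 599.8 and 553 CPM in shNSUN2, against 774, 751 and 743 CPM in FaDu. GARS1, the glycine enzyme of cytosol and mitochondria (chromosome 7, 30594681 to 30634033), had 198, 239 and 147 CPM in shNSUN2, against 309, 307 and 275 CPM in FaDu. In each of these genes all shNSUN2 libraries were below all FaDu libraries, and GARS1 was lowest in shNSUN2 replicate 3. The log2 fold changes were -0.58 for YARS1 (SE 0.12, edgeR adjusted p = 0.0147), -0.48 for AARS1 (SE 0.12, edgeR adjusted p = 0.026) and -0.61 for GARS1 (SE 0.18, edgeR adjusted p = 0.0484). All 3 lost the call when any 1 FaDu library was left out, and AARS1 and GARS1 also without shNSUN2 replicate 1, with edgeR adjusted p up to 0.0756 for YARS1, 0.102 for AARS1 and 0.147 for GARS1. The folds themselves moved little without a FaDu library, at -0.62 to -0.54 for YARS1, -0.49 to -0.46 for AARS1 and -0.66 to -0.58 for GARS1. Without a shNSUN2 library they ran from -0.64 to -0.50 for YARS1, -0.55 to -0.39 for AARS1 and -0.78 to -0.44 for GARS1. GARS1 was also not called with GC and length correction or with DESeq2 size factors, and AARS1 not with the replicate number as a block.

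**Figure D2:**
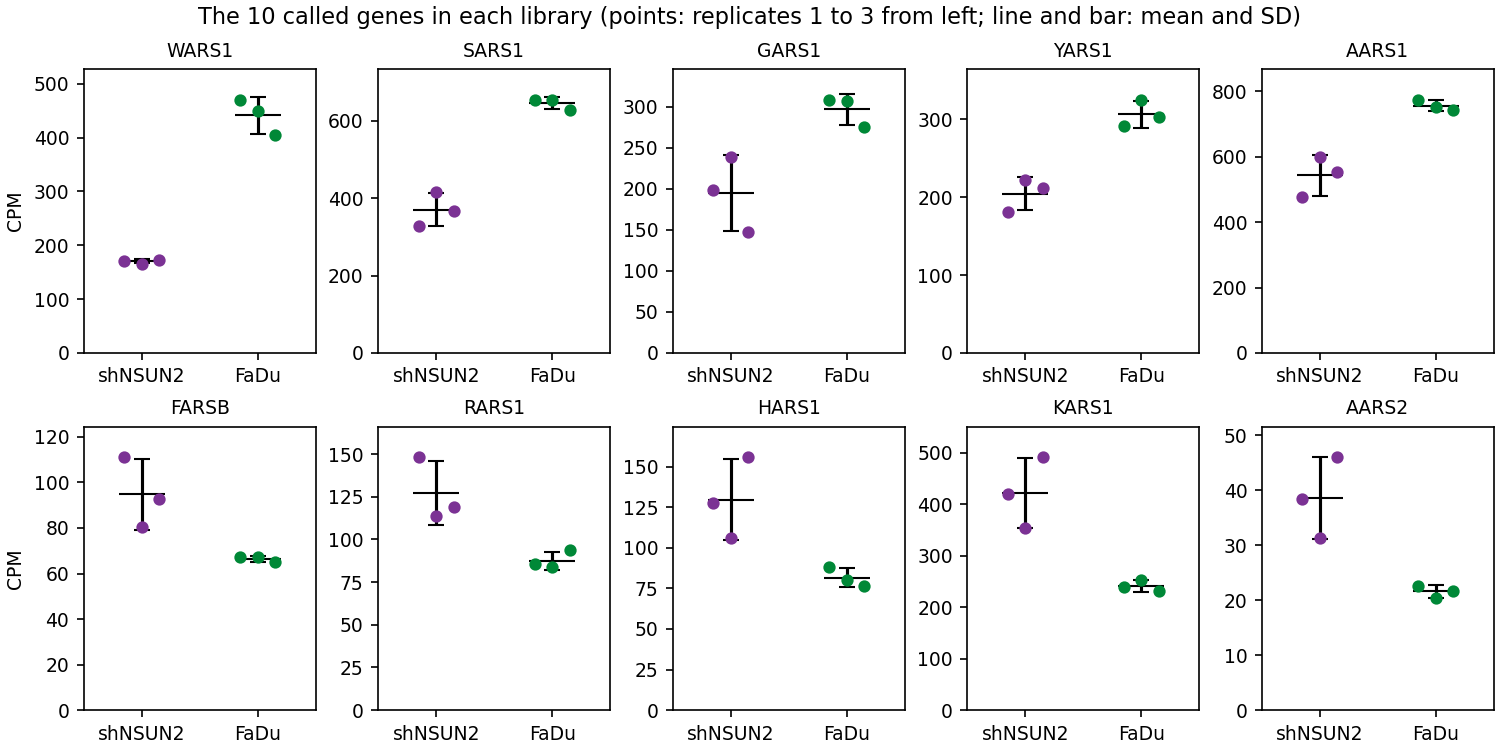
CPM (y axis, from 0) of the 10 genes that passed the test, in the 3 shNSUN2 libraries at left of each panel and the 3 FaDu libraries at right; the line and bar are the mean and SD. The groups do not overlap in any panel. The upper row holds the genes that fell, with WARS1 furthest at 170.03 CPM in shNSUN2 against 441 CPM in FaDu, and the lower row those that rose.

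The other 7 ATF4-target enzymes did not pass the test. CARS1, the cysteine enzyme, had 62.8, 79.6 and 67.1 CPM in shNSUN2, against 92.0, 90.2 and 87.8 CPM in FaDu. MARS1, which charges methionine, had 239, 269.6 and 254 CPM in shNSUN2, against 314, 303 and 310.2 CPM in FaDu. Both were lower in every shNSUN2 library, with edgeR adjusted p of 0.0834 for CARS1 (log2 -0.37) and 0.0902 for MARS1 (log2 -0.28). CARS1 passed when shNSUN2 replicate 2 was left out, and MARS1 when replicate 3 was. The groups overlapped for EPRS1 (glutamate and proline, log2 -0.26), LARS1 (leucine, log2 -0.23), NARS1 (asparagine, log2 -0.16), IARS1 (isoleucine, log2 -0.072) and TARS1 (threonine, log2 0.17). For EPRS1 and LARS1 the negative fold rested on shNSUN2 replicate 3, and without it the log2 folds were -0.027 and -0.040. NARS1 and IARS1 likewise came to -0.031 and 0.010 without that library. EPRS1 had 317, 326 and 182 CPM in shNSUN2, against 316, 337 and 333 CPM in FaDu. LARS1 had 167, 145 and 98.7 CPM in shNSUN2, against 156, 162 and 166 CPM in FaDu.

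ATF4 acts through a composite site shared with C/EBP proteins, searched here as TGATGNAA on both strands of the RefSeq promoter windows (GRCh38.p14, 250 bases before to 50 after a start, 300 in all). Of the 38 genes 33 were in that table; LARS1, VARS1, YARS1, AARS2 and VARS2 were not. A match lay in 7 of the 10 ATF4-target synthetases with a window (70%), in 0 of the 6 other cytosolic enzymes, in 1 of the 14 mitochondrial enzymes (YARS2) and in 4.46% of all 27305 genes. The 7 are shown because they include AARS1 and GARS1, which fell; each line has the match in capitals with 11 bases on each side, written along the strand of the gene.
AARS1 (chr16:70289675-70289704, minus strand): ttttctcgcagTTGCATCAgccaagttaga
GARS1 (chr7:30594834-30594863, plus strand): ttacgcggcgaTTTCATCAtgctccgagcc
CARS1 (chr11:3057407-3057436, minus strand): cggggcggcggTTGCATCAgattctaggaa
MARS1 (chr12:57488053-57488082, plus strand): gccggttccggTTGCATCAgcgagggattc
IARS1 (chr9:92293692-92293721, minus strand): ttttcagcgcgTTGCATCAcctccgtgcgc
NARS1 (chr18:57621804-57621833, minus strand): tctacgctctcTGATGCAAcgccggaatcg
TARS1 (chr5:33440956-33440985, plus strand): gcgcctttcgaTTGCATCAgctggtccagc

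In AARS1 the match began at position -187 relative to the start, and in the other 6 between -33 and 15. A match of the motif thus lay in the windows of genes that fell (AARS1, GARS1), of genes that were lower without passing (CARS1, MARS1) and of a gene with a positive fold that did not pass (TARS1). WARS1 and SARS1, the genes with the largest decreases, held no match in their windows. A match is a description of the letters and not of binding.

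Of the 7 cytosolic enzymes outside the ATF4 group 6 had a positive fold and 1, QARS1, a negative one. In edgeR's test 4 rose and 0 fell, where 8.54% of all genes tested rose and 9.97% fell. Their median log2 fold change was 0.54. In 6 of the 7 every shNSUN2 library was above every FaDu library, where 20.3% of all genes tested were. DESeq2 called 5 of the 7 higher and none lower, against 12.3% higher and 13.0% lower over all genes. None was lower at an unadjusted p under 0.05 in edgeR, against 17.3% of all genes. Together they had 1173, 979.5 and 1347 CPM in shNSUN2, against 809, 787 and 769 CPM in FaDu. No shNSUN2 library came near the FaDu range, and replicate 3 was the highest of its group in 5 of the 7 genes.

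KARS1, the lysine enzyme of both compartments (chromosome 16, 75627474 to 75648643), had 419, 354 and 492 CPM in shNSUN2, against 239, 253 and 231 CPM in FaDu. All shNSUN2 libraries were above all FaDu libraries. It rose by 0.81 on the log2 scale (SE 0.14) at an edgeR adjusted p of 0.0079, and KARS1 was called in all 13 alternatives. HARS1, the cytosolic histidine enzyme (chromosome 5, 140673904 to 140691862), had 127, 106 and 156 CPM in shNSUN2, against 88.2, 80.3 and 76.6 CPM in FaDu. RARS1, which charges arginine (chromosome 5, 168486445 to 168519299), had 148, 114 and 119 CPM in shNSUN2, against 85.4, 83.6 and 93.5 CPM in FaDu. Neither gene had a shNSUN2 library within the FaDu range. The log2 fold changes were 0.67 for HARS1 (SE 0.16, edgeR adjusted p = 0.0251) and 0.54 for RARS1 (SE 0.14, edgeR adjusted p = 0.0317).

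Phenylalanyl-tRNA synthetase of the cytosol is built from the catalytic FARSA and the FARSB subunit, and both were higher in every shNSUN2 library. FARSB (chromosome 2, 222570536 to 222656337) had 111, 80.4 and 92.6 CPM in shNSUN2, against 67.2, 67.1 and 65.0 CPM in FaDu. FARSA (chromosome 19, 12922479 to 12934037) had 81.9, 65.1 and 122 CPM in shNSUN2, against 54.3, 51.3 and 57.6 CPM in FaDu. FARSB rose by 0.51 on the log2 scale (SE 0.14, edgeR adjusted p = 0.0418). FARSA had a larger fold of 0.72 but also a larger SE of 0.22 and did not pass (edgeR adjusted p = 0.0561), with shNSUN2 replicate 3 far above the other 2; DESeq2 called it. HARS1, RARS1 and FARSB lost the call without any 1 of the FaDu libraries, without shNSUN2 replicate 1 and with the replicate block, with edgeR adjusted p up to 0.109 for HARS1, 0.129 for RARS1 and 0.146 for FARSB; FARSB was also not called without the filter on low counts. Without a FaDu library the log2 folds stayed at 0.62 to 0.73 for HARS1, 0.50 to 0.58 for RARS1 and 0.49 to 0.52 for FARSB. Without a shNSUN2 library they ran from 0.52 to 0.80 for HARS1, 0.41 to 0.61 for RARS1 and 0.39 to 0.62 for FARSB. VARS1, the valine enzyme, had 191, 175 and 252 CPM in shNSUN2, against 163, 152 and 144 CPM in FaDu (log2 0.43, edgeR adjusted p = 0.0917). QARS1, for glutamine, had 94.2, 85.7 and 114 CPM in shNSUN2, against 112, 99.9 and 101 CPM in FaDu, and its groups overlapped (log2 -0.091).

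Of the mitochondrial enzymes AARS2, for alanine (chromosome 6, 44299654 to 44313326), was the 1 that passed the test. It had 38.5, 31.3 and 46.1 CPM in shNSUN2, against 22.6, 20.4 and 21.7 CPM in FaDu, with no overlap between the groups. It rose by 0.84 on the log2 scale (SE 0.16) at an edgeR adjusted p of 0.0127, so the enzymes for alanine moved in opposite directions in the 2 compartments. AARS2 lost the call without FaDu replicate 2 or 3, with an edgeR adjusted p up to 0.063.

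Of the other 15 mitochondrial enzymes, CARS2 (cysteine) and FARS2 (phenylalanine) had every shNSUN2 library above every FaDu library. With AARS2 these are 3 of 16, near the 20.3% of all genes tested. CARS2 had 51.3, 39.5 and 56.6 CPM in shNSUN2, against 39.2, 33.2 and 33.1 CPM in FaDu (log2 0.48, edgeR adjusted p = 0.0762). FARS2 had 22.7, 23.3 and 19.7 CPM in shNSUN2, against 17.2, 15.9 and 15.9 CPM in FaDu (log2 0.42, edgeR adjusted p = 0.0631). DESeq2 called both of them together with AARS2, 3 in all, and 4 of the 16 were higher at an unadjusted p under 0.05 in edgeR. Over all genes tested DESeq2 called 12.3% higher, and 16.4% were higher at that unadjusted p, so these counts are not far from the background. No mitochondrial enzyme was lower at an unadjusted p under 0.05 in edgeR, or called lower by DESeq2. The groups overlapped for the remaining 13. YARS2 (tyrosine), TARS2 (threonine), EARS2 (glutamate), SARS2 (serine), MARS2 (methionine) and HARS2 (histidine) had log2 folds of 0.42, 0.37, 0.28, 0.27, 0.25 and 0.19. LARS2 (leucine), WARS2 (tryptophan) and RARS2 (arginine) lay at 0.086, 0.060 and 0.056, and NARS2 (asparagine), IARS2 (isoleucine), VARS2 (valine) and PARS2 (proline) at -0.031, -0.044, -0.068 and -0.23. Replicate 3 was the highest shNSUN2 library in 10 of the 16. In the case of VARS2 replicate 1 set the spread, with 19.2, 39.9 and 37.7 CPM in shNSUN2, against 30.7, 32.5 and 38.3 CPM in FaDu.

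In 16 pairs, the log2 ratio of CPM within each library set the cytosolic enzyme of an amino acid against its mitochondrial counterpart, with FARSA standing for cytosolic phenylalanine and EPRS1 for both glutamate and proline. The log2 ratio was lower on average in shNSUN2 for 12 of the 16 pairs, with a median difference of -0.27, which was -0.077 without shNSUN2 replicate 3. For 6 pairs (alanine, cysteine, methionine, serine, tryptophan, tyrosine) every shNSUN2 ratio was below every FaDu ratio, for 2 pairs (histidine, arginine) every one was above, and 8 overlapped. Each of the 8 that did not overlap had p = 0.1 in the exact two-sided permutation test, the smallest possible. After Benjamini-Hochberg adjustment over the 16 each had 0.2, so none could pass at this sample size. Of all single genes tested, 22.1% lay wholly below and 20.3% wholly above. No such share was computed for ratios of other genes, so the counts of pairs have no background beside them.

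The tryptophan ratio differed most. The log2 ratio of WARS1 to WARS2 was 2.90, 2.95 and 3.19 in shNSUN2, against 4.59, 4.32 and 4.43 in FaDu, a difference of -1.43. For AARS1 to AARS2 it was 3.63, 4.26 and 3.58 in shNSUN2, against 5.10, 5.20 and 5.09 in FaDu, a difference of -1.30. Per kilobase of exons, AARS1 and AARS2 stood at 121 and 8.98 CPM in shNSUN2, and at 168 and 5.03 CPM in FaDu. The serine pair differed by -1.07, the tyrosine pair by -0.99, the cysteine pair by -0.84 and the methionine pair by -0.54. Histidine and arginine ratios were higher by 0.46 and 0.47. The cysteine and methionine pairs contain no gene that passed the test on its own.

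**Figure D3:**
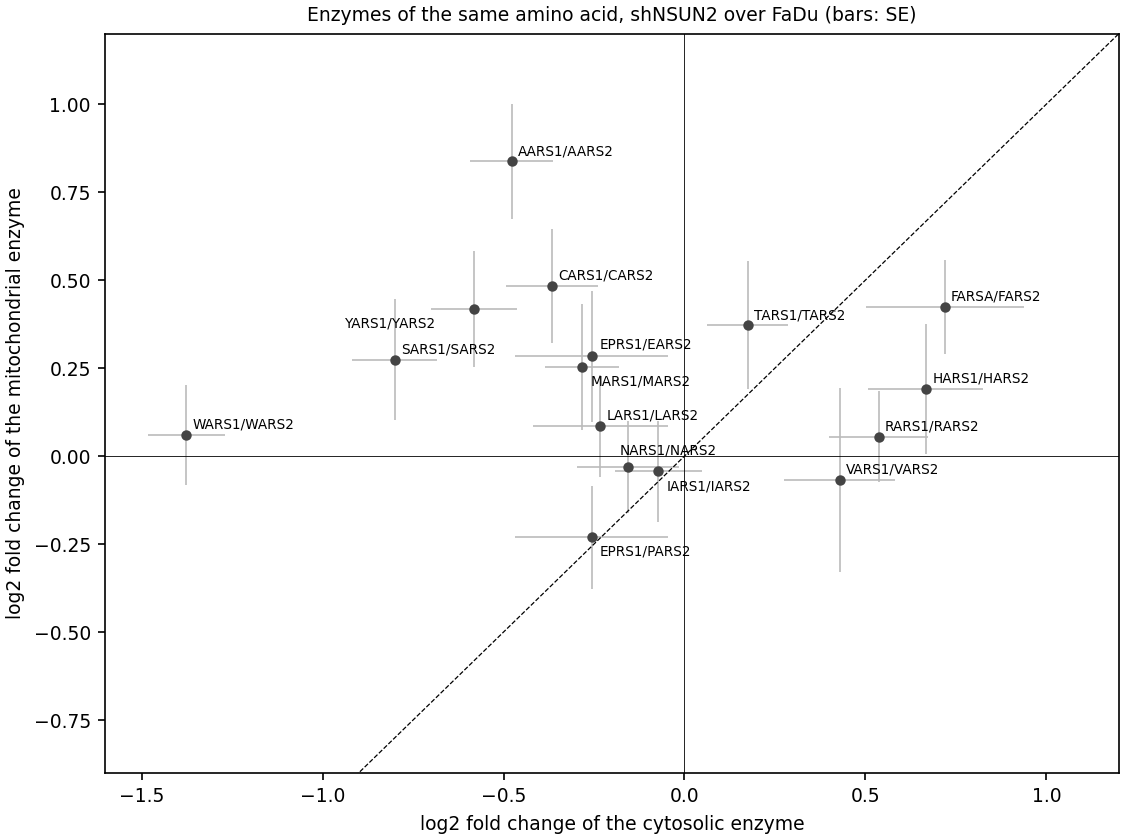
Each point is 1 amino acid, named by its cytosolic and mitochondrial gene; the x axis is the log2 fold change (shNSUN2 over FaDu) of the cytosolic enzyme, the y axis that of the mitochondrial enzyme, and bars are SEs. Points above the dashed line had a lower cytosolic to mitochondrial ratio in shNSUN2, as 12 of the 16 did; the points furthest left are WARS1/WARS2 and SARS1/SARS2, and the highest is AARS1/AARS2.

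HARS1 and HARS2 lie head to head, so that their pair shares 1 promoter region. There are 84 bases between the RefSeq starts, and this sequence is shown because both genes are read from it, HARS2 along the strand printed and HARS1 along the other. Capitals mark CCGGAAGT or its reverse complement, an ETS factor site, which stands near either start.
HARS1 and HARS2 (chr5:140691371-140691454, plus strand): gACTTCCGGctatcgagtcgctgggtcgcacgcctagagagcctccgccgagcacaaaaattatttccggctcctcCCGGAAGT

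HARS1 rose while HARS2 did not pass, with 47.3, 54.7 and 68.7 CPM in shNSUN2, against 58.7, 41.7 and 49.04 CPM in FaDu (log2 0.19, edgeR adjusted p = 0.512). The log2 ratio of HARS1 to HARS2 was 1.43, 0.95 and 1.18 in shNSUN2, against 0.59, 0.94 and 0.64 in FaDu. The lowest shNSUN2 ratio and the highest FaDu ratio nearly touch. The annotated exons of the pair also share 437 bases, and without strand in the counts reads there cannot be assigned to either gene. The ETS letters lay in 8 of the 33 windows (24.2%) and in 4.95% of all 27305 genes; besides this pair they were found for CARS1, NARS1, TARS1, WARS1, EARS2 and PARS2. GCGCATGC, part of an NRF1 site, lay in MARS2 and YARS2 (6.06% of 33, and 3.68% of all).

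None of the 3 scaffold proteins passed edgeR's test or DESeq2's, and none had an unadjusted p under 0.05. AIMP1 had 66.1, 44.4 and 55.5 CPM in shNSUN2, against 46.9, 51.6 and 46.3 CPM in FaDu. AIMP2 had 42.5, 38.3 and 60.1 CPM in shNSUN2, against 40.7, 39.1 and 45.3 CPM in FaDu. EEF1E1 had 31.0, 23.3 and 28.6 CPM in shNSUN2, against 22.5, 23.4 and 24.6 CPM in FaDu. The groups overlapped in all 3, with log2 folds of 0.20, 0.17 and 0.24. Among the 10 listed members of the multi-synthetase complex, which adds EPRS1, IARS1, LARS1, MARS1, QARS1, RARS1 and KARS1, 2 rose and 0 fell, with a median of 0.050. Over all genes tested 18.5% passed in either direction, so the count in this list is near the background. All 5 cytosolic enzymes that fell lie outside that list, and so do HARS1 and FARSB, so the 12 cytosolic enzymes outside it held 2 increases and 5 decreases (median -0.26).

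Synthetases also divide into class I and class II, by the fold of the catalytic domain. Of 18 class I genes 1 rose and 2 fell, with a median log2 fold of 0.0059, and of 16 class II genes 4 rose and 3 fell, with a median of 0.23. Over all genes tested 8.54% rose and 9.97% fell, so the class I count is near the background. The difference between the classes was not tested. Within the cytosol the medians were -0.23 for the 9 class I genes and 0.17 for the 9 class II genes; EPRS1 holds both classes and was counted in neither.

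The order of the levels changed with the decreases. Per kilobase of exons, SARS1 and AARS1 were the most abundant members in FaDu, each at 168 CPM per kilobase, while they had 96.7 and 121 CPM per kilobase in shNSUN2. KARS1 had 104 CPM per kilobase in shNSUN2, at rank 2 of 38, and 59.3 CPM per kilobase in FaDu, where its rank was 7. WARS1 had 26.7 CPM per kilobase in shNSUN2, at rank 14, and 69.4 in FaDu, at rank 5. The median level of the 19 cytosolic genes was 36.1 CPM per kilobase in shNSUN2 and 37.3 in FaDu, and that of the 16 mitochondrial genes 8.09 and 6.76. IARS2, at 49.9 in shNSUN2 and 51.4 in FaDu, was the most abundant mitochondrial enzyme in both groups, and lay above most cytosolic ones.

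**Figure D4:**
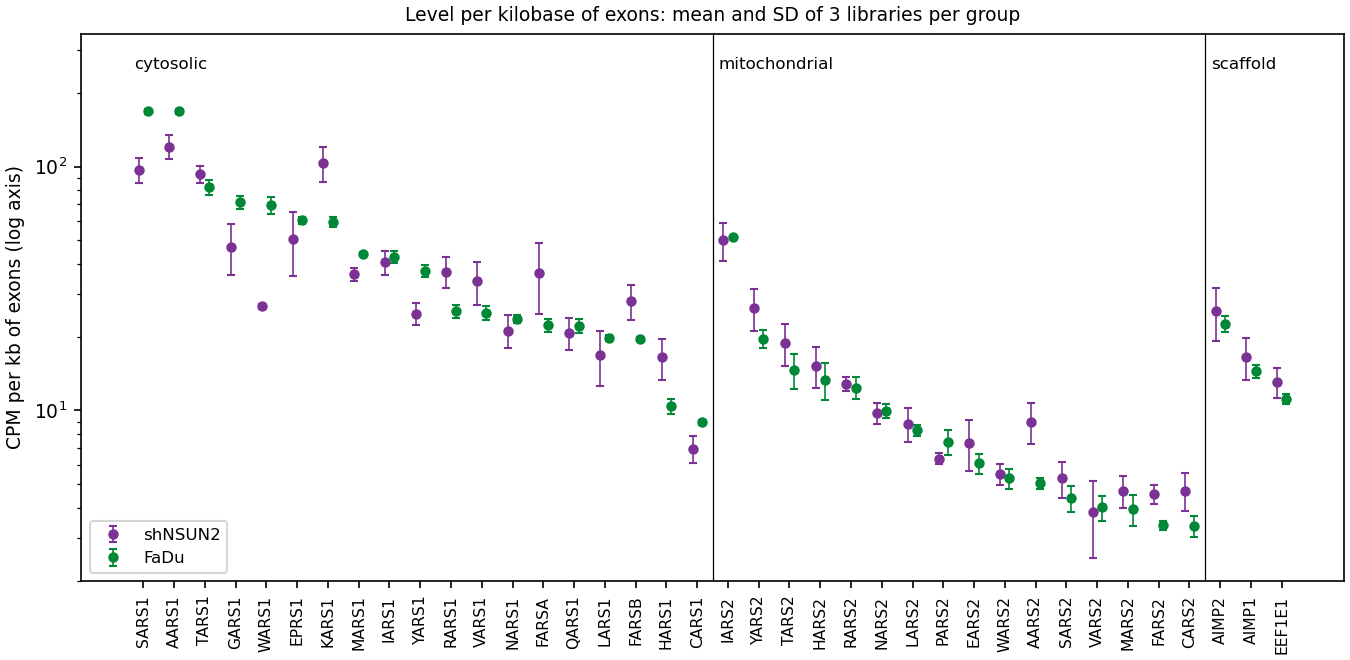
Level of each gene in CPM per kilobase of exons (log axis), with the mean and SD of the 3 shNSUN2 libraries in purple at left and of the 3 FaDu libraries in green at right; genes are ordered by their FaDu level within each compartment. WARS1 drops out of the order at 26.7 in shNSUN2 against 69.4 in FaDu, and KARS1 stands at 104 in shNSUN2 against 59.3 in FaDu.

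ATF4 targets that are not synthetases were mostly lower. Of 26 listed genes 13 fell and 2 rose in edgeR's test, where 9.97% of all genes tested fell and 8.54% rose. Their median log2 fold change was -0.86. The amino acid transporter pair SLC7A5 (log2 -1.04, SE 0.11) and SLC3A2 (log2 -0.90, SE 0.12) fell, as did PHGDH, the first enzyme of serine synthesis (log2 -1.31, SE 0.15), and the secreted hormone STC2 (log2 -1.13, SE 0.14). The 2 that rose were CHAC1 (log2 0.89) and ATF5 (log2 2.08), named after their values were seen. This list was chosen with earlier results of these data known, which already showed ATF4 genes lower.

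Other interferon-induced genes did not fall with WARS1. Of 14 listed genes 9 rose in edgeR's test and 0 fell, where 8.54% of all genes tested rose and 9.97% fell. The median log2 fold was 0.82. DESeq2 called 11 higher and none lower, against 12.3% higher and 13.0% lower over all genes. None was lower at an unadjusted p under 0.05 in edgeR, against 17.3% of all genes. MX1 (log2 2.01, SE 0.25), OAS3 (log2 1.17, SE 0.15), OAS1 (log2 1.23, SE 0.19) and GBP1 (log2 0.82, SE 0.13) had the smallest adjusted p of that list. WARS1 had the sign of most listed ATF4 targets and the opposite sign to the median of this list. Its promoter window held no match of the ATF4 motif. The cause of its decrease was not tested.

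In the rest of the translation machinery edgeR called 1 gene of the 32 listed, where 18.5% of all genes tested were called. Of 11 further tRNA charging factors, among them the export receptor XPOT (log2 -0.40) and the CCA-adding enzyme TRNT1 (log2 0.23, named after its value was seen), none was called by edgeR or DESeq2, and 1 was higher and 1 lower at an unadjusted p under 0.05 in edgeR. Of 11 mitochondrial translation factors edgeR called none and DESeq2 called 1, higher, while 3 were higher at an unadjusted p under 0.05; the median was 0.15, with TUFM at 0.42 and TSFM at 0.54. Of 10 cytosolic elongation and termination factors edgeR called 1, the ribosome recycling factor ABCE1, higher (log2 0.52, SE 0.15, edgeR adjusted p = 0.0448), while DESeq2 called 4 higher and 1 lower. At an unadjusted p under 0.05 in edgeR 5 of the 10 were higher and 1 lower, the libraries of 5 lay wholly above FaDu and those of 1 wholly below, and the median was 0.21. Over all genes tested 16.4% were higher and 17.3% lower at that unadjusted p, and 20.3% lay wholly above and 22.1% wholly below. DESeq2 called 12.3% of all genes higher and 13.0% lower. In edgeR no gene of that last list was called without any 1 of the FaDu libraries or without shNSUN2 replicate 1 or 2. With the GC and length correction 5 genes of that list were called higher, as were 5 of the mitochondrial factors. That correction called 3399 of all 19081 genes higher.

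**Figure D5:**
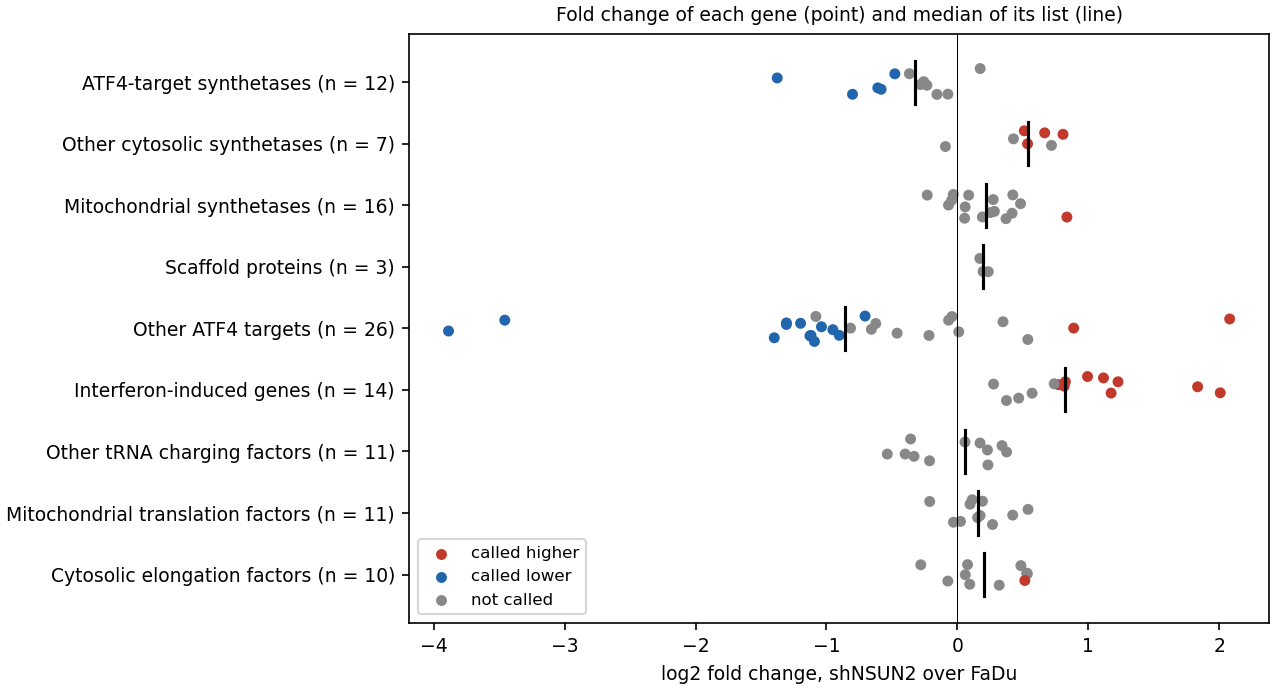
Log2 fold change (x axis, shNSUN2 over FaDu) of each gene in 4 sets of synthetase genes and 5 other lists; black lines are medians, red points rose, blue points fell and grey points did not pass. The median of the 12 ATF4-target synthetases (-0.32) lies left of that of the 7 other cytosolic enzymes (0.54), and that of the 26 other ATF4 targets (-0.86) further left.

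Base composition and overlapping genes touch some of these values. Across the 38 genes, the log2 difference of shNSUN2 replicate 3 from the mean of replicates 1 and 2 had a Spearman rho of 0.577 with GC content, and of 0.716 across the 19 cytosolic genes, as a description over genes that share libraries. With a correction for GC and length, 7 cytosolic genes were called higher and 4 lower, against 4 and 5 without it, and over all genes 3399 were higher and 1926 lower, against 1629 and 1903. That correction moved the median log2 fold of all genes to 0.11, and the cytosolic and mitochondrial medians to -0.038 and 0.29. Without shNSUN2 replicate 3, 5 cytosolic genes were called higher and 6 lower (all 6 in the ATF4 group), and 2 mitochondrial genes higher.

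Exons of 22 of the 38 genes overlap another annotated gene, which is protein-coding for 14 of them, and strand is not stated for the counts. KARS1 shares 176 bases with TERF2IP, which had a log2 fold of 0.025, and WARS1 shares 287 bases with WDR25, at 0.0028. YARS1 shares 396 bases with S100PBP, at 0.014. Those neighbours had smaller folds than the synthetases beside them, and their part in the synthetase values was not tested. HARS1 shares 221 bases with WDR55, which rose by 0.58 (edgeR adjusted p = 0.0402). CARS2 shares 326 bases with ING1, which rose by 0.77 (edgeR adjusted p = 0.0212). VARS2 shares 1858 bases with GTF2H4 (log2 0.76), MARS1 shares 355 with DDIT3 (log2 -0.82) and SARS2 shares 349 with MRPS12 (log2 0.85). These neighbours were not called. AIMP2 shares 532 bases with EIF2AK1, which had means of 185 CPM in shNSUN2 and 183 CPM in FaDu. EARS2 shares 370 with UBFD1, which ran from 44.3 to 220 CPM over the libraries, and AIMP1 shares 387 with TBCK (log2 -0.031). The values of all these members are less certain, and the part of the neighbours in them was not tested.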

How the data were processed

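The authors deposited 1 table of estimated counts per gene for 6 libraries, 3 shNSUN2 and 3 FaDu. Bowtie 0.12.2, HISAT2 2.0 and StringTie 1.3.0 appear in the submitters' processing notes with no role; the build listed there, mm8, belongs to mouse, while the identifiers are human. Human build, annotation and strand setting were not given in the sources used here. Deposited values were whole numbers and were used unrounded. Counts of 4 were 3.25 to 3.81 times as frequent as the average of counts of 3 and 5, so a fragment often counts as 4 units and low values carry more error than their size shows.

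Tests used edgeR 4.0.16 under R 4.3.3 (glmQLFit robust, TMM scaling, filterByExpr with minimum count 10 and total 15, group alone), two-sided, with Benjamini-Hochberg adjustment over 19081 genes and calls at an adjusted p under 0.05. The SE is the absolute log2 fold change divided by the square root of F. CPM are scaled by TMM. Ratios were compared by exact permutation with SciPy 1.17.1. Gene names (58472 identifiers matched) were looked up in a name table and in GENCODE 29 on GRCh38, which also gave positions. Promoter sequences are RefSeq's; a gene counted as holding a motif when any of its windows did. The fit was tested on simulated data. Alternatives were DESeq2 1.42.0, its size factors, no filter, counts divided by 4, a replicate block, a GC and length correction (mgcv 1.9.3), both together, and leaving out each library. The members, lists and motifs were chosen with earlier results of these data known. All 38 members and NSUN2 are named; of every other list, at most the 4 genes with the smallest adjusted p, unless marked.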

Additional observations from a re-analysis of the deposited data

How the results depend on the processing

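Of the genes that passed, WARS1, SARS1, KARS1 and NSUN2 were called under all 13 alternatives run. No called gene changed direction. Leaving out each library in turn gave 478 to 2090 genes higher and 861 to 2181 lower over all genes, 1 to 5 cytosolic synthetases higher and 2 to 6 lower, 2 to 6 of the ATF4 group lower, 1 to 5 of the other cytosolic enzymes higher, and 0 to 3 mitochondrial enzymes higher. Fewer genes were called without shNSUN2 replicate 1 or any FaDu library, and more without shNSUN2 replicate 3. With the GC and length correction, 3399 genes and 7 cytosolic and 4 mitochondrial enzymes were called higher, and 1 of the ATF4 group (TARS1). DESeq2 called 3 mitochondrial enzymes higher, and the replicate block with GC and length correction called 2.

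The submitters mention pairing, but not what the libraries of a pair had in common. Deviations of same-numbered libraries from their group means correlated at -0.0364, 0.0235 and 0.00744 across genes. Differences within shNSUN2 also followed GC content, with Spearman rho of -0.323, -0.224 and 0.418 for replicates 1, 2 and 3. With 3 libraries per group, these correlations therefore cannot settle whether the replicate numbers pair the samples. With the replicate block 969 genes were called higher and 1401 lower, 1 cytosolic synthetase was called higher (KARS1, outside the ATF4 group) and 4 lower, and 1 mitochondrial enzyme was called higher.

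Small folds that had not passed changed sign. With GC and length correction IARS1 came to 0.085, IARS2 to 0.074, NARS2 to 0.091, VARS2 to 0.031 and the IARS1/IARS2 log2 ratio to 0.020; with the block as well IARS1 came to 0.086, IARS2 to 0.066 and NARS2 to 0.087. Leaving out each library in turn gave log2 folds of -0.15 to 0.010 for IARS1, -0.15 to 0.095 for IARS2, -0.015 to 0.21 for LARS2, -0.096 to 0.042 for NARS2, -0.25 to 0.20 for VARS2 and -0.043 to 0.30 for AIMP2. It gave differences in log2 ratio of -0.070 to 0.50 for FARSA/FARS2, -0.084 to 0.023 for IARS1/IARS2, -0.30 to 0.0085 for NARS1/NARS2, -0.27 to 0.22 for EPRS1/PARS2 and -0.33 to 0.025 for TARS1/TARS2. The median over the 16 ratios ran from -0.41 to -0.077, and was -0.077 without shNSUN2 replicate 3. The cause was not tested. The steps of 4 in the counts limit genes of low counts most.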
